A study of Homo sapiens with 24 samples.

Results

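The comparison described here set the 4 tumors collected 48 h after the last dose of IK-595 against the 4 tumors collected 8 h after it, which are 8 of the 24 tumors of the study. They were picked by the collection time in their labels and not by an expression value of a tumor. Earlier results of these data were known when the comparison was chosen. All tumors were AsPC-1 xenografts, grown in mice from a single established line of human pancreatic ductal adenocarcinoma. The treated mice had received 3 oral doses of IK-595 at 6 mg/kg, given every other day, so the tumors at 48 h stand at the end of a dosing interval. The submitters call IK-595 a MEK-RAF molecular glue, and MEK and RAF are kinases. Levels in 4 tumors of vehicle mice (3 doses of 5% DMSO and 95% PEG400, collected at 2 h) are given beside the results as a reference. Vehicle tumors stand at 2 h alone, so a change with time and a change with the drug cannot be told apart in these values. The study set out to trace the time course of expression once the drug had been given.

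RAS, RAF, MEK and ERK form a kinase cascade that carries growth signals, and it is commonly overactive in pancreatic cancer. Active ERK raises the mRNA of its own inhibitors, such as DUSP phosphatases and Sprouty proteins, which makes these transcripts a readout of the pathway. ERK activity also raises cyclin D1 and MYC, and MYC in turn is known to drive genes of ribosome production and metabolism.

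Depth was 11259182 to 14857030 estimated counts per tumor at 8 h, 18454216 to 20639340 at 48 h and 19681656 to 20578007 in vehicle tumors, so depth did not overlap between the times compared. Levels below are CPM, counts per 1000000 counts of the library scaled by TMM, with the mean ± SD of 4 tumors. Markers of ductal carcinoma were present in all 8 tumors, among them KRT19 at 2220 ± 461 CPM at 8 h and 2590 ± 291 CPM at 48 h, while KRT7 was low at 6.04 and 5.52 CPM. The 8 h tumors 2 and 4 carried mRNA of skeletal muscle. The 9 listed adipocyte, muscle and red cell markers, tested or not, summed to 1980 and 719 CPM there. They summed to 18.9 and 33.7 CPM in 8 h tumors 1 and 3 and to 5.82 to 13.5 CPM at 48 h. In vehicle tumors the sums were 14.5 to 199 CPM. Of the 6 tested markers 1 fell, TNNT3 of fast muscle, where 11.3% of all tested genes did. Its call was kept only without 8 h tumor 1 or 3 among the 8 fits that left out 1 tumor. It was lost without both 8 h tumors 2 and 4. By DESeq2 4 of the 6 passed. The times did not overlap in 4 of the 6, all lower at 48 h, where 13.2% of all tested genes were. The 15 fibroblast and pericyte markers summed to 1510 to 5760 CPM at 8 h and 968 to 2050 CPM at 48 h, and none passed the test by edgeR (1 at an unadjusted p under 0.05, 1 by DESeq2). Their median log2 difference was -0.78, and COL1A1 stood at 1470 ± 846 CPM at 8 h and 572 ± 328 CPM at 48 h. In tumor tissue, fewer cells of a type and less RNA per cell cannot be told apart. Reads of mouse cells can count toward human genes of like sequence, and the part of host RNA in the results below was not tested.

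**Figure D1:**
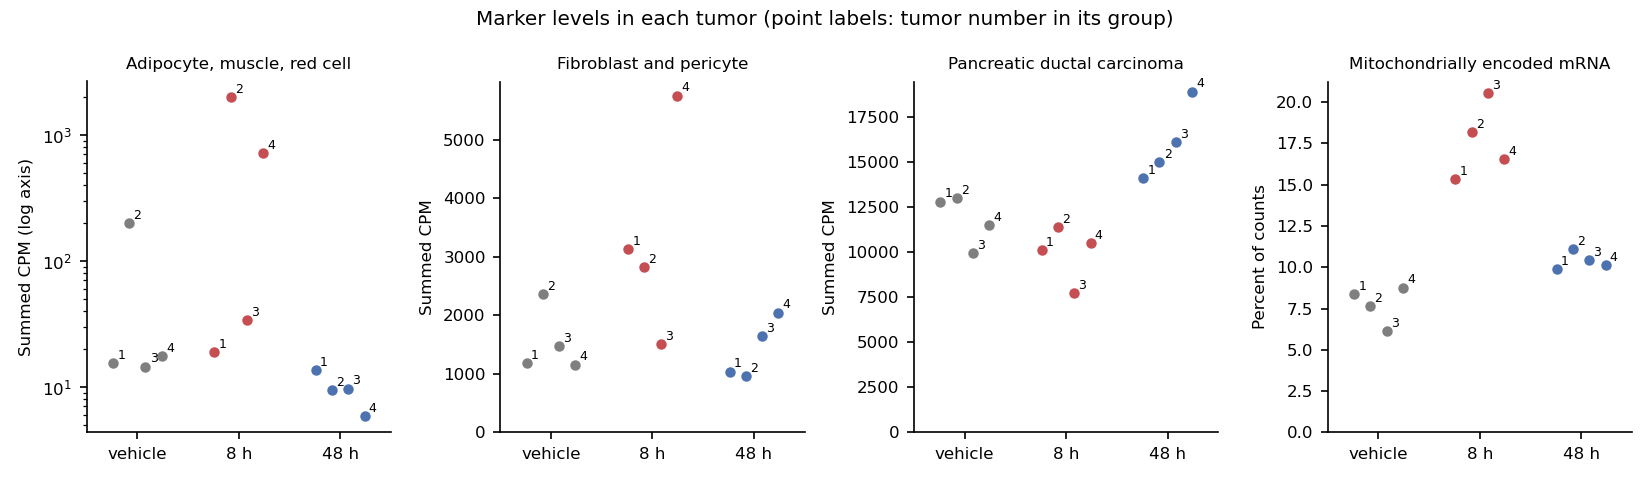
Summed CPM of 3 marker lists and the percent of counts from mitochondrially encoded mRNA (vertical axes, the first on a log scale) in each vehicle, 8 h and 48 h tumor; each point is 1 tumor, labelled with its number. The adipocyte, muscle and red cell markers stood out in 8 h tumors 2 and 4 (1980 and 719 CPM in sum). The mitochondrial share was higher in every 8 h tumor (15.33% or more) than in any 48 h tumor (11.11% or less).

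Between 8 h and 48 h the transcripts that report ERK activity rose. DUSP6, SPRY4, DUSP4 and EPHA2 were among the 6 largest rises of genes with a mean log2 CPM of at least 3, no overlap between the times and a call kept on leaving out each tumor. Of 18242 genes tested, 3127 rose and 2054 fell at 48 h (edgeR's robust quasi-likelihood test, Benjamini-Hochberg adjusted p under 0.05), which is 17.1% and 11.3% of the genes. The median log2 difference over all tested genes was -0.06. At least 2-fold, 881 rose (4.83%) and 874 fell (4.79%), so large changes were split evenly. For reference, 8083 genes (44.3%) differed between 8 h and vehicle and 1821 (9.98%) between 48 h and vehicle in the same fit; these comparisons share tumors with each other and with the one described. Of the called genes 60.4% rose with TMM and 43.4% with upper-quartile scaling. That share was 77.4% on log2(TPM + 1), where unit and test both differ, and 70.8% without a filter on low counts. Upper-quartile scaling moved the median gene by -0.13 and log2(TPM + 1) by 0.14. Without 8 h tumors 2 and 4, 1681 genes rose and 1041 fell, and without 48 h tumor 1, 1300 fell.

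**Figure D2:**
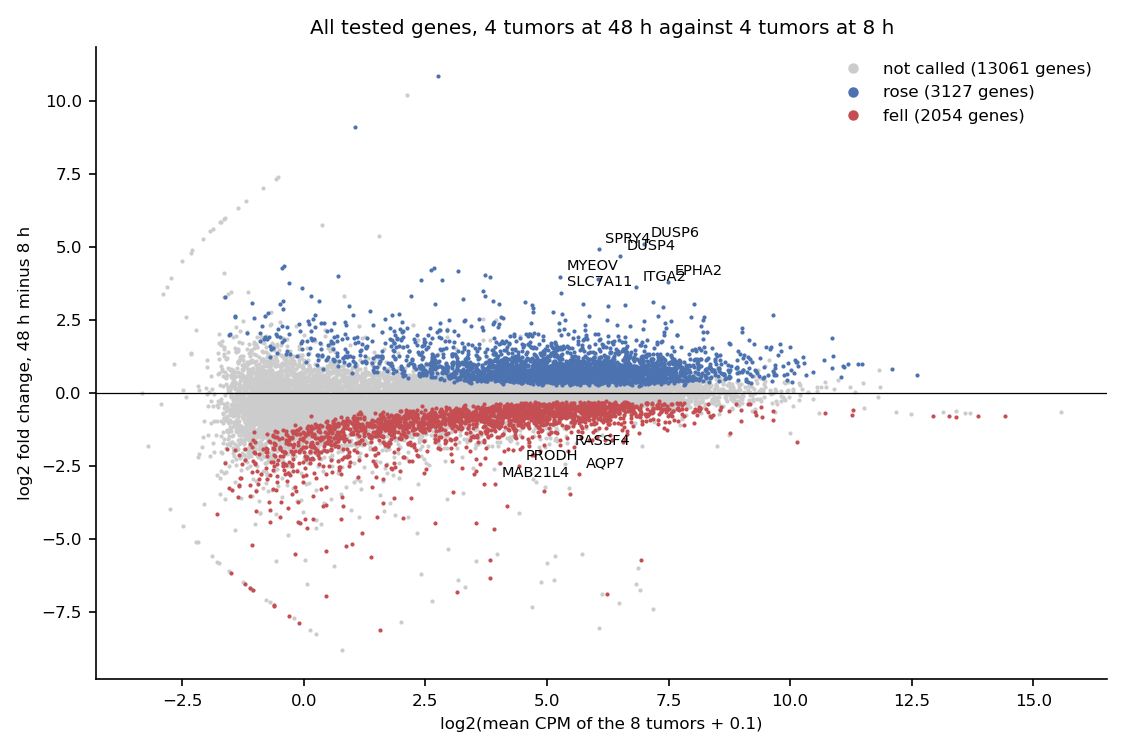
Each point is a tested gene, with its level as log2(mean CPM of the 8 tumors + 0.1) on the horizontal axis and its log2 fold change, 48 h minus 8 h, on the vertical axis; blue genes rose (3127), red genes fell (2054) and grey genes did not pass the test. DUSP6 and SPRY4 lie near 5 at the upper edge of the well expressed genes, and MAB21L4 and AQP7 near -3 at the lower edge.

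DUSP6, a phosphatase that removes the activating phosphates of ERK, had the largest rise among the well expressed genes. Its level was 12.9, 5.88, 5.29 and 4.58 CPM in the 4 tumors at 8 h and 246, 228, 297 and 226 CPM at 48 h, against 255 ± 24 CPM in vehicle tumors. The times did not overlap, and the mean at 48 h lay 34.5-fold above that at 8 h (log2 difference 5.11 ± 0.37 SE, adjusted p = 5.52e-09). DUSP6 is annotated on chromosome 12 at 89347232 to 89353271 (GRCh38, minus strand). SPRY4, a Sprouty protein that dampens receptor signals to RAS, stood at 8.29, 2.34, 4.53 and 1.73 CPM at 8 h and at 136, 110, 161 and 110 CPM at 48 h. Every 48 h tumor was above every 8 h tumor, by 4.91 ± 0.35 on the log2 scale (adjusted p = 5.52e-09), and in both genes 8 h tumor 1 was the highest of its group. DUSP4, a nuclear phosphatase of MAP kinases, rose from 6.71 ± 3.26 to 175 ± 55.1 CPM.

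The 10 genes of the MAPK output score, a published type of readout that averages known ERK targets, moved together. The score, their mean log2 CPM, was 2.74 ± 0.52 at 8 h, 6.15 ± 0.18 at 48 h and 6.52 ± 0.04 in vehicle tumors (SD, n = 4 each). The difference of 3.41 ± 0.28 (SE) between the times had an exact two-sided permutation p of 0.0286, the smallest that 4 against 4 tumors allow (70 assignments). The lowest score at 48 h, 5.96, was above the highest at 8 h, 3.51. Of the 10 genes 9 rose, where 17.1% of all tested genes did, and EPHA4, at 0.666 ± 0.243 and 1.95 ± 1.41 CPM, did not pass (adjusted p = 0.137). EPHA2, a receptor of the Eph family, stood at 36.2, 20.2, 19.8 and 19.3 CPM at 8 h and at 300, 266, 456 and 324 CPM at 48 h. CCND1, which encodes cyclin D1, rose from 50.7, 24.7, 29.5 and 16.6 CPM to 296, 240, 275 and 233 CPM, with 265 ± 25.9 CPM in vehicle tumors. The ETS factors ETV4 and ETV5, which carry ERK signals to promoters, rose by 2.76 ± 0.20 and 3.88 ± 0.35. ETV5 and PHLDA1 were the 2 members that were still below vehicle at 48 h, at 13.3 ± 1.77 against 27.4 ± 2.03 CPM and at 144 ± 48.1 against 281 ± 20.3 CPM.

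**Figure D3:**
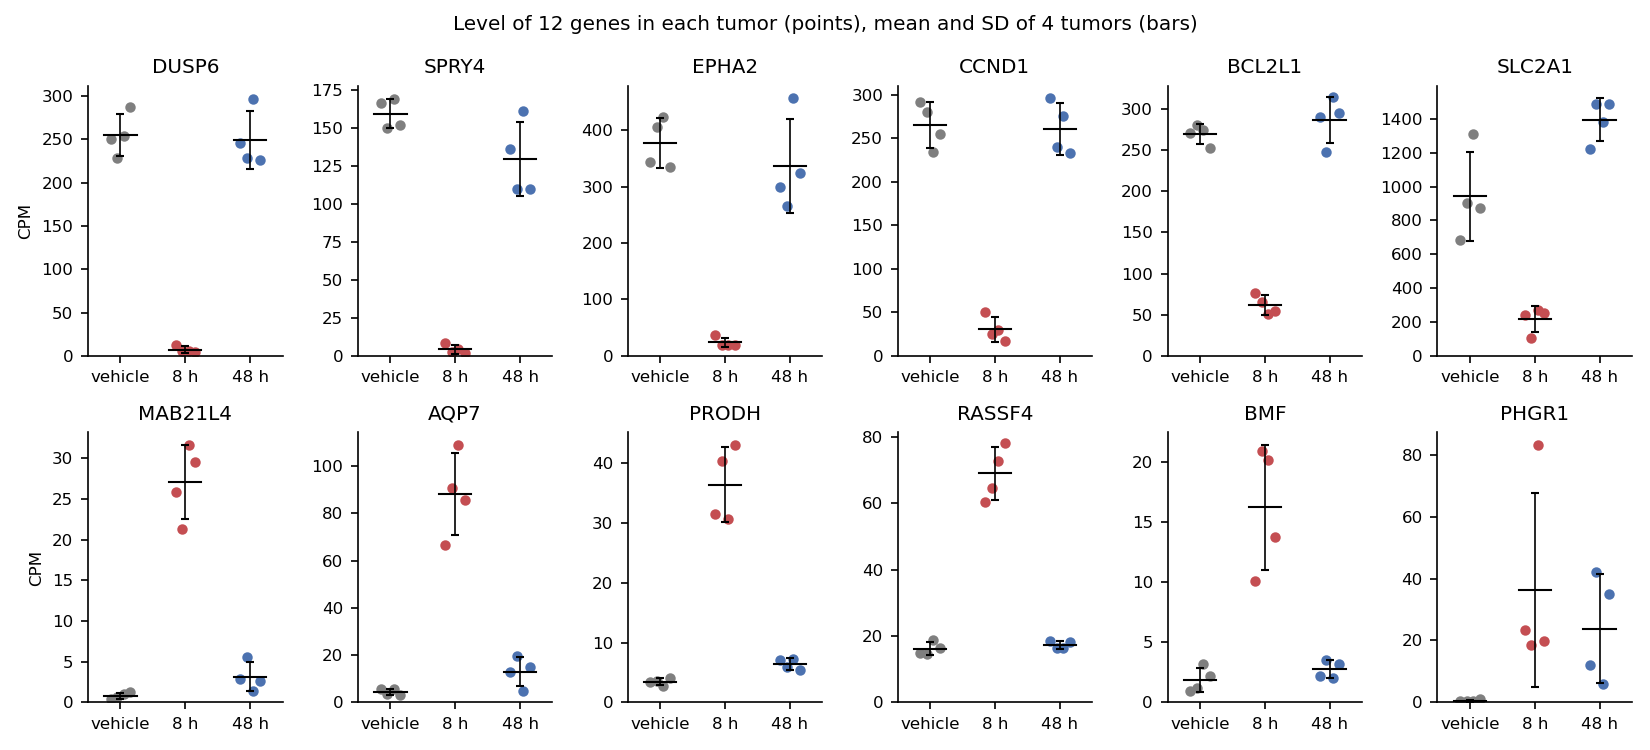
CPM (vertical axes, from 0) of 12 genes in the vehicle, 8 h and 48 h tumors; points are single tumors, the wide line is the mean and the bar the SD of 4. DUSP6 through SLC2A1 were low in all 4 tumors at 8 h, MAB21L4 through BMF were high there, and PHGR1 overlapped between 8 h and 48 h.

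Feedback inhibitors of the pathway rose as a set: 13 of 14 tested genes passed (92.9%, against 17.1% of all tested genes that rose), with a median of 2.41. The Sprouty genes SPRY1 and SPRY2 rose by 1.48 ± 0.17 and 1.52 ± 0.21, and the related SPRED1 and SPRED2 by 2.35 ± 0.47 and 2.51 ± 0.21. DUSP5 and DUSP7, phosphatases of ERK, rose by 2.68 ± 0.48 and 2.51 ± 0.24, with DUSP5 at only 3.3 ± 0.56 CPM at 48 h. ERRFI1, an inhibitor of the EGF receptor, rose from 57.1 ± 22.5 to 315 ± 24.1 CPM, and IER3 from 49.1 ± 9.41 to 141 ± 31.6 CPM. RASA2, a GTPase-activating protein of RAS, did not pass, at 27.6 ± 4.35 and 33.1 ± 2.25 CPM (0.26 ± 0.15), but was called on log2(TPM + 1) at 0.52 (limma, adjusted p = 0.0213). SPRED3 passed at an adjusted p of 0.0491, and its call was kept only without 48 h tumor 4 or 8 h tumor 2 among the 8 fits that left out 1 tumor. PHLDA1, which is on both lists, was the 1 feedback gene still below vehicle.

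A smaller share of the genes of the cascade itself passed the test than of its feedback inhibitors. Of 20 genes for RAS, RAF, MEK, ERK, their adaptors and RAS regulators 9 rose and none fell, with a median of 0.43. The share that rose was 45%, against 17.1% of all tested genes. NRAS rose from 28.9 ± 3.58 to 52.1 ± 8.53 CPM and NF1, a GTPase-activating protein that turns RAS off, from 44.1 ± 5.55 to 78.9 ± 12.7 CPM. MAPK3, which encodes ERK1, stood at 112 ± 8.1 and 138 ± 17.4 CPM (0.30 ± 0.17, adjusted p = 0.177). The count of 9 became 5 with upper-quartile scaling, 5 without 8 h tumor 2 and 4 without 8 h tumors 2 and 4.

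Growth factors and receptors upstream of RAS were mixed. Of 8 EGFR ligands and receptors 5 rose and none fell (62.5% and 0%, against 17.1% and 11.3% of all tested genes). The rises were led by the ligands HBEGF (3.22 ± 0.32), TGFA (1.57 ± 0.26) and AREG (1.41 ± 0.24). HBEGF was at 3.2, 0.98, 1.6 and 1.55 CPM at 8 h and at 17.4, 13.7, 21.2 and 16.7 CPM at 48 h, without overlap. ERBB3, a receptor of the family, was at 530 ± 58.8 and 441 ± 27.2 CPM and did not pass the test, although its tumors did not overlap (-0.26 ± 0.19). Of 14 Eph receptors and ephrins 5 rose (35.7%), among them EFNB2 (1.64 ± 0.17) and EPHB4 (1.27 ± 0.13). Of 18 other receptor kinases and adaptors 6 rose (33.3%) and none fell (1 with upper-quartile scaling). Yet their median was -0.16 with TMM and 0.16 on log2(TPM + 1). MET, the receptor of hepatocyte growth factor, rose from 120 ± 31.2 to 504 ± 154 CPM, and the insulin receptor substrate IRS1 from 11.1 ± 4.35 to 45 ± 7.49 CPM.

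Immediate early transcription factors, which growth signals induce within minutes, rose in 15 of 23 cases and fell in none, with a median of 0.77. These are 65.2% and 0%, against 17.1% and 11.3% of all tested genes. MYC, a factor that drives growth genes, was at 8.23, 6.86, 3.55 and 6.05 CPM at 8 h and at 44.9, 34.8, 63.5 and 41 CPM at 48 h. The times did not overlap (2.90 ± 0.27, adjusted p = 1e-07), and the 48 h mean of 46 CPM compares with 73.7 ± 8.7 CPM in vehicle tumors (-0.68 on the log2 scale, adjusted p = 0.0856). FOSL1, an AP-1 subunit induced by ERK, rose from 1.68 ± 0.823 to 26.6 ± 13.5 CPM. KLF6, a zinc finger factor, rose from 283 ± 41.2 to 723 ± 64.9 CPM and passed the vehicle level of 509 ± 43.8 CPM (0.51, adjusted p = 0.0125). FOSL2, the most expressed factor that did not pass, was at 200 ± 34.6 and 221 ± 38.2 CPM. Of 12 ETS factors of the PEA3 and ETS groups 7 rose and 1 fell (58.3% and 8.33%). The count that fell was 0 to 2 on leaving out 1 tumor, 2 with upper-quartile scaling or DESeq2, and 0 without 8 h tumors 2 and 4. ETV1 rose from 3.39 ± 2 to 28.6 ± 7.32 CPM, still under 60.6 ± 7.82 CPM in vehicle tumors (adjusted p = 0.00741).

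EGR1, an early zinc finger factor named here after its values were seen, is a textbook target of the ERK-regulated serum response factor, which binds CArG boxes. It stood at 2.09, 3.09, 0.279 and 0.432 CPM at 8 h and at 31.1, 17, 33.1 and 17.4 CPM at 48 h (4.04 ± 0.54, adjusted p = 1.61e-05). Its RefSeq promoter window, 250 bases before to 50 after the start (GRCh38.p14, chr5:138465229-138465528, plus strand), is shown because its 2 CArG box matches, in capitals, start 105 and 83 bases before the start:
EGR1: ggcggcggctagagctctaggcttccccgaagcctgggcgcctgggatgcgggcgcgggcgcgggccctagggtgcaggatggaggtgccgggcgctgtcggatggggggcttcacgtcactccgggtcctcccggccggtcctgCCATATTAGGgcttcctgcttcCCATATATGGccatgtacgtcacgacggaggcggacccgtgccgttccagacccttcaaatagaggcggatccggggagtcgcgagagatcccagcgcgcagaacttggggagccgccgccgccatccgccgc
A CArG box was found in 1.29% of the 27305 promoters of the table and in 1.07% of those of the genes that rose. Among the 18 immediate early factors with a promoter in the table, 2 held one. A match is a stretch of letters and not a measured binding site.

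Nearly every gene of ribosome biogenesis rose. Of 26 tested members, which make or process ribosomal RNA and are linked to MYC, 25 rose and none fell, with a median of 0.95. These are 96.2% and 0%, against 17.1% and 11.3% of all tested genes. Without 8 h tumors 2 and 4, 18 rose. Tumors did not overlap in 24 of the 26, all higher at 48 h, where 18.2% of all tested genes were. Levels at 48 h did not all reach the vehicle level, since 11 of the 26 were still below vehicle at 48 h (4.46% of all tested genes) and the median against vehicle was -0.44. NOP14, a factor of small subunit assembly, was at 16.8, 14.4, 12.3 and 11.7 CPM at 8 h and at 43.2, 38.5, 45.5 and 34.6 CPM at 48 h (1.55 ± 0.18, adjusted p = 1.93e-06). WDR43, which acts in transcription of ribosomal RNA, was at 19.5, 15.2, 16.2 and 13.5 CPM and at 50.7, 38.1, 52.4 and 34.7 CPM (1.45 ± 0.17), with 69.3 ± 10.8 CPM in vehicle tumors. GNL3, a nucleolar GTPase, rose from 16.8 ± 3.57 to 42.2 ± 4.89 CPM. Only FBL, the methyltransferase of ribosomal RNA, did not pass, at 42.6 ± 6.46 and 46.9 ± 8.35 CPM, and it stayed below the vehicle level of 74.6 ± 11.5 CPM.

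Promoter windows of 22 of these 26 genes were in the RefSeq table. The E-box CACGTG, a palindrome to which MYC is known to bind, was in 9 of them (40.9%), against 7.43% of all 27305 promoters and 9.63% of those of tested genes. The list was drawn up from genes linked to MYC, so this share is not independent of how its members were chosen. The windows of NOP14 (chr4:2963357-2963656, minus strand) and WDR43 (chr2:28894417-28894716, plus strand), both GRCh38.p14, are shown with the E-box in capitals, as examples of a motif that lies just after the start, 16 and 4 bases into the transcript:
NOP14: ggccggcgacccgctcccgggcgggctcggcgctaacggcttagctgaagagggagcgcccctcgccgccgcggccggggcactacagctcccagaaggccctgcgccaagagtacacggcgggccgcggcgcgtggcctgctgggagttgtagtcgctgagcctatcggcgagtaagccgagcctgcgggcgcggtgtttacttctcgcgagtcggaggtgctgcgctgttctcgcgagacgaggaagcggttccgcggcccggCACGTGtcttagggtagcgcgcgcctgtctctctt
WDR43: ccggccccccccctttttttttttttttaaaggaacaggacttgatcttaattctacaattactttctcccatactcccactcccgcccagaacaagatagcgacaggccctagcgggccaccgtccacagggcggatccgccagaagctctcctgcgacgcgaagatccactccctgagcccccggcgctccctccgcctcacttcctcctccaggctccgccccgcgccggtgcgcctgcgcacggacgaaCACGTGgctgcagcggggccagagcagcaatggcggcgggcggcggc
The ETS core CCGGAAGT, searched on both strands, was in 10% of the promoters of genes that rose, 5.18% of those that fell and 8.02% of those tested. No promoter of the 6 MAPK score genes in the table held the ETS core, the E-box or a CArG box, which says only that these letters are not in that window.

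Among genes of protein synthesis and metabolism, most aminoacyl-tRNA synthetases rose. Of 20 aminoacyl-tRNA synthetases, which charge tRNAs, 14 rose and none fell, with a median of 0.50. These are 70% and 0%, against 17.1% and 11.3% of all tested genes. FARSB stood at 1.08 ± 0.15, TARS1 at 0.96 ± 0.19 and MARS1 at 0.63 ± 0.12 (0.25 without a call on log2(TPM + 1)). At 48 h 8 of the 20 were below vehicle, where 4.46% of all tested genes were. Of 20 enzymes of purine and pyrimidine synthesis 8 rose (40%) and 2 fell (10%, near the 11.3% of all tested genes). On leaving out 1 tumor 0 to 2 fell, and 0 fell without 8 h tumors 2 and 4. At 48 h 10 of the 20 were still below vehicle. The count of 8 became 5 with upper-quartile scaling, without 48 h tumor 3, without 8 h tumor 3, and without 8 h tumors 2 and 4. GART, an enzyme of purine synthesis, rose from 19.7 ± 4.18 to 47.3 ± 7.77 CPM, and MTHFD2, which supplies folate carbons, from 15.5 ± 4.19 to 35.8 ± 4.59 CPM, below the 62.8 ± 5.42 CPM of vehicle tumors. Of 21 genes of amino acid supply 9 rose (42.9%) and 2 fell (9.52%, near the 11.3% of all tested genes). Here too 0 to 2 fell on leaving out 1 tumor and 0 without 8 h tumors 2 and 4. SLC7A11, the cystine importer, rose from 10.9, 4.98, 5.43 and 4.92 CPM to 75.1, 58.5, 86.7 and 63.7 CPM (3.43 ± 0.26), and the glutamine carriers SLC38A1 and SLC38A2 rose by 1.97 ± 0.16 and 1.49 ± 0.17.

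Glycolysis genes rose in 11 of 21 cases and fell in none (52.4% and 0%, against 17.1% and 11.3% of all tested genes). Their median was 0.72, and none differed from vehicle at 48 h, where 9.98% of all tested genes did. SLC2A1, the glucose importer GLUT1, was at 243, 103, 272 and 252 CPM at 8 h and at 1220, 1490, 1380 and 1490 CPM at 48 h. All 48 h tumors were above all 8 h tumors (2.68 ± 0.32, adjusted p = 3.09e-06), with vehicle tumors at 943 ± 264 CPM. The lactate exporter SLC16A3 and the hexokinase HK1 rose by 1.22 ± 0.21 and 1.16 ± 0.18. Of 20 hypoxia genes 5 rose and 1 fell (25% and 5%, against 17.1% and 11.3% of all tested genes). On leaving out 1 tumor 0 or 1 fell. Without 8 h tumors 2 and 4, 1 rose and none fell, and 3 rose without 8 h tumor 2. Of 24 cholesterol genes 7 rose (29.2%) and none fell (1 with upper-quartile scaling). IDI1, an isomerase of cholesterol synthesis, rose from 35.3, 34.5, 22.8 and 28.9 CPM to 82.2, 50.6, 95 and 36.5 CPM (1.12 ± 0.27), and every 48 h tumor was above every 8 h tumor. The count of 7 became 4 without 48 h tumor 3 and 3 without 8 h tumors 2 and 4. Of 22 heat shock proteins and chaperonins 10 rose and 1 fell (45.5% and 4.55%). The rises were led by HSPH1 (1.22 ± 0.16), HSPA9 (0.93 ± 0.17) and HSP90AB1 (0.89 ± 0.17). Of 19 NRF2 antioxidant genes 6 rose and 3 fell (31.6% and 15.8%), and 1 fell without 48 h tumor 4 or 8 h tumor 2.

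**Figure D4:**
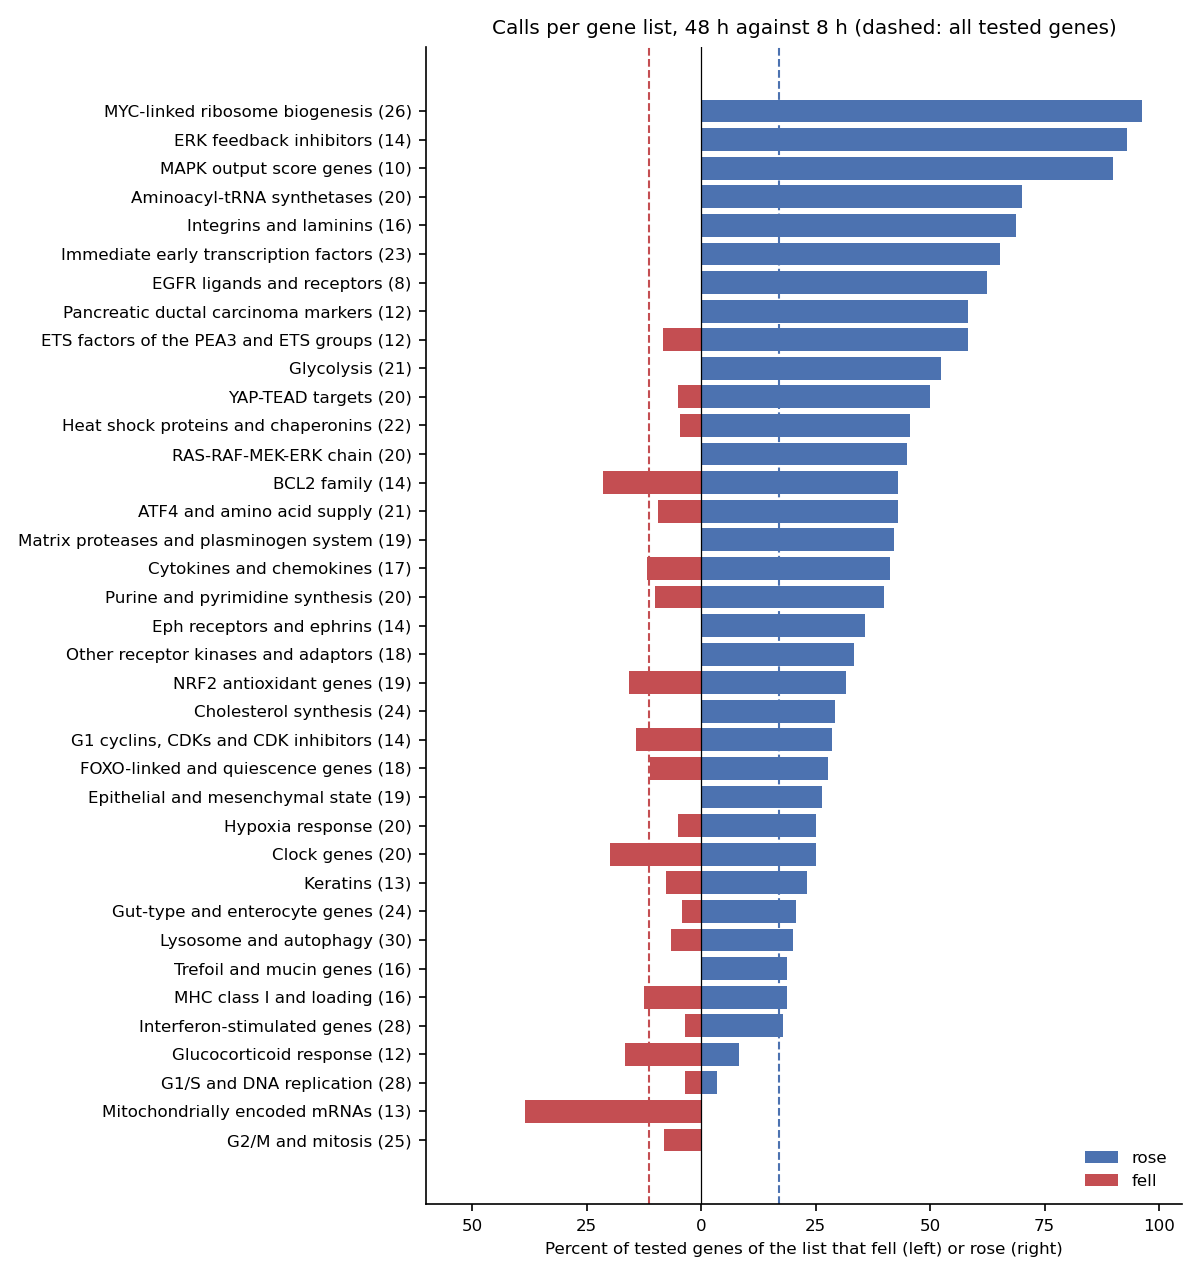
Percent of the tested genes of each list (number in brackets) that rose (blue, right) or fell (red, left) at 48 h; dashed lines mark all tested genes, 17.1% rising and 11.3% falling. Ribosome biogenesis, ERK feedback and MAPK score genes reach furthest to the right, and no G2/M gene or mitochondrially encoded mRNA rose.

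Proliferation genes were still far below vehicle at 48 h, when MAPK score genes were high. None of 25 G2/M and mitosis genes rose by edgeR, at an unadjusted p under 0.05 or by DESeq2. By edgeR 17.1% of all tested genes rose. In the list 2 fell (8%, under the 11.3% of all tested genes), and the median was -0.52. By DESeq2 or with upper-quartile scaling 4 fell, and 5 fell at an unadjusted p under 0.05. At 48 h all 25 were below vehicle (median -1.94), where 4.46% of all tested genes were; at 8 h 24 were (median -1.42, with 23.7% of all tested genes below vehicle). MKI67, the gene of the proliferation marker Ki-67, stood at 92.3, 97.7, 25.1 and 82.1 CPM at 8 h and at 73, 33.4, 119 and 40.5 CPM at 48 h. The groups overlapped fully (-0.16 ± 0.39, adjusted p = 0.786), and vehicle tumors were higher at 326, 283, 161 and 253 CPM. KIF20A, a kinesin of cell division, was at 21.9, 22.2, 7.24 and 18.2 CPM at 8 h and at 8.72, 3.72, 9.73 and 5.51 CPM at 48 h, a fall of -1.33 ± 0.33 (adjusted p = 0.00498; -1.07 without a call when 8 h tumors 2 and 4 were left out), with 30.5 ± 7.97 CPM in vehicle tumors. Its groups overlapped through 8 h tumor 3, which had the lowest mean of the list at 8 h, 3.20 against 4.50 to 4.77 log2 CPM. CENPE, a kinesin of the kinetochore, also fell, but its call was lost without 48 h tumor 2 or 4 and without 8 h tumor 1, 2 or 4. The count of 2 became 5 and 6 without 48 h tumor 3 and without 8 h tumor 3, 1 on leaving out any of 5 other tumors, and 0 without 8 h tumors 2 and 4.

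Most G1/S genes were below vehicle at 48 h as well. Of 28 tested genes of DNA replication 1 rose (SLBP, a histone mRNA binding protein, 0.64 ± 0.18) and 1 fell. That is 3.57% in each direction, under the 17.1% and 11.3% of all tested genes. At 48 h 20 of the 28 were below vehicle, where 4.46% of all tested genes were. Without 8 h tumor 3, 5 fell, and without 8 h tumors 2 and 4 none rose or fell. Their median was -0.15 with TMM and 0.09 on log2(TPM + 1). MCM7, a subunit of the replicative helicase, was at 94.1 ± 22.4 and 90.9 ± 19.9 CPM, against 175 ± 34.6 CPM in vehicle tumors. Of 14 G1 cyclins, CDKs and CDK inhibitors 4 rose and 2 fell (28.6% and 14.3%, against 17.1% and 11.3% of all tested genes). The rises became 2 without 48 h tumor 1, 48 h tumor 3 or 8 h tumor 3. Without 8 h tumors 2 and 4, 2 rose and 1 fell. Among them CDKN1A, the CDK inhibitor p21, rose with CCND1, from 35.3 ± 10.1 to 172 ± 19.4 CPM (2.29 ± 0.26), and CDKN1C, the inhibitor p57, fell from 2.57 ± 0.357 to 0.855 ± 0.351 CPM.

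**Figure D5:**
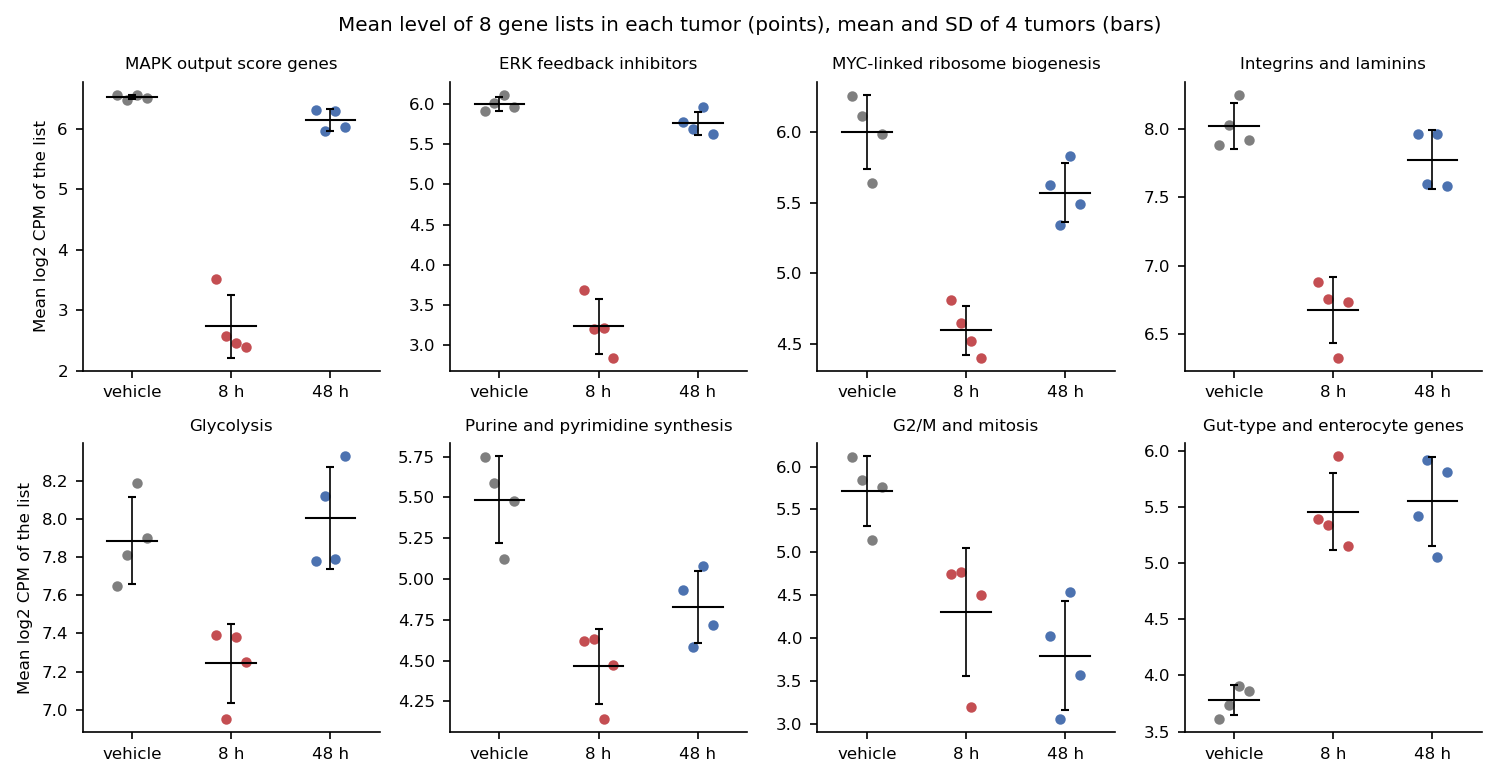
Mean log2 CPM of the tested genes of 8 lists (vertical axes, not starting at 0) in the vehicle, 8 h and 48 h tumors; points are single tumors, the wide line is the mean and the bar the SD of 4. MAPK score genes were high again at 48 h (5.96 to 6.31), G2/M genes were as low as at 8 h or lower (3.06 to 4.54), and gut-type genes were above vehicle at both times.

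Regulators of cell death in the BCL2 family split. Of 14 tested genes 6 rose and 3 fell (42.9% and 21.4%, against 17.1% and 11.3% of all tested genes). BCL2L1, which encodes the survival protein BCL-xL, was at 76.9, 65.1, 50.6 and 54.1 CPM at 8 h and at 290, 248, 314 and 295 CPM at 48 h (2.22 ± 0.17, adjusted p = 7.71e-09), next to 270 ± 11.8 CPM in vehicle tumors. BMF, a BH3-only protein that promotes apoptosis, was at 10.1, 20.9, 20.2 and 13.8 CPM at 8 h and at 2.24, 3.56, 2.06 and 3.24 CPM at 48 h, a fall of -2.55 ± 0.34 (adjusted p = 1.2e-05). The other genes that fell, both BH3-only and named because the count is small, were BBC3 (PUMA), from 25.6 to 13.5 CPM, and BCL2L11 (BIM), from 79.7 ± 11.5 to 45.2 ± 6.21 CPM (-0.82 ± 0.18, adjusted p = 0.0018, and -0.48 without a call on log2(TPM + 1)). BAK1, an effector of apoptosis, rose by 0.92 ± 0.17, and the BH3-only gene PMAIP1, named after its values were seen, by 1.29. BCL2L11 is a textbook target of FOXO factors, and its promoter window (GRCh38.p14, chr2:111120664-111120963, plus strand) is shown with the 1 match to the FOXO motif GTAAACA in capitals, 223 bases before the start:
BCL2L11: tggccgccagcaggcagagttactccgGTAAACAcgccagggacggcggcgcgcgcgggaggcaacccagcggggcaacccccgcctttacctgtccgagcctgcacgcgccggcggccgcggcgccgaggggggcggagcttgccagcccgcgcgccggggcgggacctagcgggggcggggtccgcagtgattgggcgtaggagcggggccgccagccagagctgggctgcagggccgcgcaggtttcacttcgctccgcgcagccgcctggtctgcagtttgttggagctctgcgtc
That motif, searched on both strands, was in 3.41% of all promoters and in 2.16% of those of the genes that fell.

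Among genes with a mean log2 CPM of at least 3, no overlap between the times and a call kept on leaving out each tumor, the 10 largest falls were in genes that were above vehicle at 8 h. These genes were picked for high levels at 8 h relative to 48 h, and the same 8 h tumors were set against vehicle. Their place above vehicle at 8 h is therefore in part built in by that choice and is not an independent result. MAB21L4, a gene linked to epithelial differentiation (chromosome 2 at 240886048 to 240896889, minus strand), was at 25.9, 21.3, 31.6 and 29.6 CPM at 8 h and at 2.94, 5.63, 1.39 and 2.61 CPM at 48 h. The groups did not overlap (-3.10 ± 0.34, adjusted p = 1.06e-06), and the gene remained above the vehicle level of 0.825 ± 0.358 CPM (adjusted p = 0.00166). AQP7, a channel for water and glycerol, fell from 66.7, 90.9, 109 and 85.8 CPM to 12.7, 19.7, 4.84 and 14.9 CPM (-2.76 ± 0.30) and was also still above vehicle. PRODH, the first enzyme of proline breakdown, fell from 31.5, 40.3, 30.6 and 43.1 CPM to 7.08, 5.9, 7.34 and 5.34 CPM (-2.50 ± 0.25). RASSF4, a gene of the RAS association domain family, fell from 60.3, 64.8, 72.9 and 78.2 CPM to 18.6, 16.5, 16.3 and 18.1 CPM (-1.99 ± 0.16), next to 16.2 ± 1.95 CPM in vehicle tumors. RAB26, a small GTPase of secretory vesicles, and the collagen gene COL28A1 fell by 2.23 and 1.99 on the log2 scale. C4A, TNXB and RPL22P1 were also among those 10; they have near-identical copies or a parent gene whose reads can be mixed with theirs, which makes the values uncertain, and all 3 lost their calls without 8 h tumors 2 and 4. Other large rises were MYEOV (3.98 ± 0.27) and KIAA0040 (3.91 ± 0.32), the collagen-binding integrin ITGA2 (3.62 ± 0.38) and the heparan sulfate enzyme HS3ST1 (3.12 ± 0.29).

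Among adhesion genes, most integrins and laminins rose. Of 16 integrins and laminins 11 rose and none fell (68.8% and 0%, against 17.1% and 11.3% of all tested genes). Their median was 0.96. ITGA2 was at 21.8, 12.7, 20.8 and 13.5 CPM at 8 h and at 265, 181, 260 and 140 CPM at 48 h, and ITGA6 and ITGB4, which pair as a laminin receptor, rose from 97.3 ± 30 to 480 ± 156 CPM and from 735 ± 111 to 1530 ± 312 CPM. LAMA5, a laminin chain, was at 1250 ± 218 and 1060 ± 104 CPM and did not pass. Of 19 matrix protease and plasminogen genes 8 rose (42.1%) and none fell (1 with upper-quartile scaling or DESeq2), with a median of 0.85. The rises were led by the urokinase receptor PLAUR (1.44 ± 0.15), the plasminogen activator PLAT (2.50 ± 0.29) and the protease inhibitor SERPINE2 (1.31 ± 0.29). Of 20 YAP-TEAD targets 10 rose and 1 fell (50% and 5%), with F3 (tissue factor) at 1.44 ± 0.18 and NUAK2, a kinase, at -1.76 ± 0.24. The count that fell was 1 or 2 on leaving out 1 tumor and 2 with upper-quartile scaling or DESeq2. Of 17 cytokines and chemokines 7 rose (41.2%) and 2 fell (0 without 8 h tumors 2 and 4). The 11.8% that fell is near the 11.3% of all tested genes. LIF, a cytokine that signals through STAT3, rose from 67.9 ± 3.95 to 271 ± 14 CPM, and IL1A and IL1B, the inflammatory interleukins, rose by 3.33 ± 0.37 and 4.17 ± 0.51 from levels under 1 CPM.

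Gut-type and enterocyte genes were above vehicle at 8 h and at 48 h, and few of them differed between the times. Of 24 tested genes 5 rose and 1 fell (20.8% and 4.17%, against 17.1% and 11.3% of all genes; 4 fell with upper-quartile scaling and 3 by DESeq2), and the median was -0.05 with TMM and 0.01 on log2(TPM + 1). At 48 h 16 of the 24 were above vehicle (median 1.49), where 5.52% of all tested genes were, and at 8 h 14 were. The list was drawn up with earlier results of these data known and gives no independent support for that direction. PHGR1, a gene of intestinal epithelium named here after its values were seen, was at 23.4, 18.5, 83 and 19.8 CPM at 8 h and at 12.1, 42.2, 6 and 35.1 CPM at 48 h, against 0.342 to 0.988 CPM in vehicle tumors. Its groups overlapped (-0.60 with an adjusted p of 0.477), so no change between the times was detectable, in either direction, beyond the spread of these tumors. MUC13, a transmembrane mucin, was at 1150 ± 348 and 1280 ± 435 CPM (0.15 ± 0.33), with 339 ± 98 CPM in vehicle tumors. The members that rose included SLC5A1, the sodium-glucose carrier SGLT1, from 22.5 ± 7.29 to 57 ± 13.8 CPM, and VIL1, the microvillus protein villin, from 231 ± 19.3 to 345 ± 38.7 CPM. The count of 5 became 3 without 8 h tumors 2 and 4. AQP7, which is on this list, was the 1 member that fell.

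Markers of ductal carcinoma were in part above vehicle at 48 h, in 6 of 12 cases, where 5.52% of all tested genes were. Of the 12 markers 7 rose (58.3%, against 17.1% of all tested genes) and none fell between the times (median 0.60). Without 8 h tumors 2 and 4, 4 rose. CEACAM6, an adhesion molecule of epithelial tumors, was at 349, 460, 299 and 371 CPM at 8 h and at 945, 1090, 1100 and 1230 CPM at 48 h (1.56 ± 0.22), above the 608 ± 65.3 CPM of vehicle tumors (adjusted p = 0.0126). CLDN4, a tight junction protein, rose from 433, 318, 549 and 306 CPM to 815, 1340, 978 and 1430 CPM (1.51 ± 0.25), against 434 ± 42.7 CPM in vehicle tumors. Of 19 genes of epithelial and mesenchymal state 5 rose and none fell (26.3% and 0%, against 17.1% and 11.3% of all tested genes). With upper-quartile scaling 3 rose and 1 fell, and by DESeq2 7 rose and 2 fell. CDH1 (E-cadherin) rose by 0.73 ± 0.19 (0.62 and no longer called without 8 h tumors 2 and 4). VIM (vimentin) stayed below vehicle, at 1460 ± 313, 1530 ± 191 and 2900 ± 229 CPM at 8 h, 48 h and in vehicle tumors. That list's count was 3 without 8 h tumors 2 and 4, without 48 h tumor 2 and without 8 h tumor 4. KRT16, a stress keratin, was at 249 ± 121 CPM at 8 h and 103 ± 46.3 CPM at 48 h, against 15.7 ± 6.27 CPM in vehicle tumors; its call as fallen was lost without 48 h tumor 2 or 3 and without 8 h tumor 2 or 4.

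Clock genes moved in both directions. The titles give hours after the last dose and no time of day. Time of day and time after the dose therefore cannot be told apart in these values. Of 20 tested genes 5 rose and 4 fell (25% and 20%, against 17.1% and 11.3% of all tested genes). Without 8 h tumors 2 and 4, 5 rose and 2 fell. With upper-quartile scaling 5 rose and 7 fell, and by DESeq2 5 rose and 6 fell. NPAS2 and BMAL1, partners in the activating complex, rose from 36.6 ± 9.83 to 98.8 ± 12.1 CPM and from 3.82 ± 0.966 to 11.1 ± 1.31 CPM. The 4 that fell were the output factor DBP (-1.29), the repressor PER2 (-0.84) and CIART (-0.98; -0.56 without a call when 8 h tumors 2 and 4 were left out), named because the count is small, and PER1 (-0.69 ± 0.22, a call lost without 48 h tumor 1, 2 or 3 and without 8 h tumor 3 or 4).

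Mitochondrially encoded mRNAs made up 15.33% to 20.52% of counts at 8 h and 9.87% to 11.11% at 48 h, with 6.13% to 8.77% in vehicle tumors. All 13 were lower in every 48 h tumor than in any 8 h tumor, where 13.2% of all tested genes were, and the median was -0.68. Only 5 passed the test by edgeR (10 by DESeq2, 9 with upper-quartile scaling), which is 38.5%, against 11.3% of all tested genes that fell. None of these 5 calls was kept in every fit that left out 1 tumor. The count became 0 without 48 h tumor 1, 48 h tumor 3, 8 h tumor 3, or 8 h tumors 2 and 4, 1 without 48 h tumor 4 or 8 h tumor 2, 2 without 48 h tumor 2 and 3 without 8 h tumor 4. MT-CO1, a subunit of cytochrome oxidase, was at 59500 ± 8860 and 37900 ± 2290 CPM (-0.65 ± 0.27, adjusted p = 0.0773). The part of this share in the other results was not tested.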

How the data were processed

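RNA of 24 tumors was sequenced after polyA selection, per the labels. The authors deposited estimated counts for each gene. The submitters' processing notes list Salmon 0.14.1, FastQC 0.12.1 and bcl2fastq 2.17 and the build GRCh38.p13. Whether strand was used, and whether mouse reads were removed, is not given in the sources used here. The deposited TPM values, which the authors scaled to 1 total per tumor, per the values, served for 2 alternatives. Groups were read from titles, because the time tag names vehicle even for drug-treated tumors.

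Estimated counts were rounded, since 59.6% of values above 0 were whole to within 0.0015. Names came from the gene name table (60089 of 60230 genes) and coordinates from GENCODE release 29 (57972). After filterByExpr 18242 genes entered 1 model of the 24 tumors in edgeR 4.0.16, with its robust quasi-likelihood test (R 4.3.3, TMM) and tested at 48 h against 8 h, with Benjamini-Hochberg adjustment. A prior count of 2 was added for log2 CPM. The fit was tested on simulated data. Nothing in the labels says more of a replicate than its number and 1 animal each. A gene's p therefore weighs its difference against the spread between tumors of a group. That spread was estimated over all 24 tumors, with information shared across genes. The members and the 41 gene lists (699 tested genes) were chosen with earlier results of these data known.

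Named genes were the 10 largest rises and falls with a mean log2 CPM of at least 3, no overlap between the tumors and a call kept on leaving out each tumor; from each list the 3 called genes of lowest adjusted p and, of those that did not pass, the one at the highest level; and all MAPK score and feedback genes. Fewer were printed, some genes are not reported here, and others are marked. Alternatives were RLE and upper-quartile scaling, DESeq2 1.42.0, limma-voom (limma 3.58.1), log2(TPM + 1) and log2(TPM + 0.1), other filters and thresholds, a replicate block, the 8 tumors alone, each tumor left out and, chosen after seeing the data, both 8 h tumors 2 and 4 left out. No 2 tumors had identical values. The standard error of a gene's log2 fold change was worked back from its test. It is the absolute log2 fold change divided by the square root of the F statistic. The median of these standard errors was 0.23.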

Additional observations from a re-analysis of the deposited data

Results flagged for a closer look

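Of 326 groups of 4 tumors, 21 held a tumor whose gap to the nearest other was above Dixon's critical value for 4 samples; chance gives about 1 in 20 groups. All values are log2 CPM of the tumor that stood apart.

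The 8 h tumor 3 was low for MKI67 at 4.65, for the mean of the G2/M genes at 3.20 and for ITGB4 at 9.15. It was high for PHGR1 at 6.38, MUC13 at 10.71, BCL2L11 at 6.60, ERBB3 at 9.27 and RASA2 at 5.10. The 8 h tumor 1 was high for EPHA2 at 5.18, SLC7A11 at 3.46, HK1 at 5.50 and the mean of the ETS factors at 5.21. The 8 h tumor 2 was low for SLC2A1 at 6.69, and 8 h tumor 4 was high for the mean of the clock genes at 4.50.

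Among the 48 h tumors, tumor 1 was low for BBC3 at 3.41 and high for the mean of the keratins at 6.07. Tumor 2 was low for VIM at 10.28, HK1 at 6.14 and the mean of the fibroblast and pericyte markers at 3.68. Tumor 4 was high for KRT7 at 3.37 and low for NF1 at 5.91.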

How the results depend on the processing

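The MAPK score difference stayed at 2.91 to 3.67 with an exact p of 0.0286 under RLE scaling, a prior count of 0.5, TPM and on leaving out each tumor in turn (3.29 to 3.67). Without both 8 h tumors 2 and 4, a choice made after seeing the data, it was 3.16 with an exact p of 0.0667, the smallest that 2 against 4 tumors allow. There 1681 genes rose and 1041 fell. Other alternatives that moved a count by over 1.5 times were an adjusted p under 0.01 (1978 rose, 877 fell), a fold of at least 2 (881 and 874), no filter on low counts (1221 fell), log2(TPM + 1) (900 fell) and log2(TPM + 0.1) (875 fell). On leaving out each tumor 2462 to 3079 genes rose and 1300 to 1905 fell, the lowest without 48 h tumor 1. The labels number the tumors of each time alike, but same-numbered tumors did not deviate together (r = 0.09, -0.16, -0.31 and 0.10 for numbers 1 to 4); with the replicate number as a block 2999 genes rose and 1761 fell.

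Of 121 genes printed with a value, the calls of 19 were lost under at least 1 alternative, in 81 of 2299 gene values recomputed, and 3 genes became called (EPHA4, MT-CO1 and RASA2). Signs turned only in 6 genes that were not called: KRT7 (-0.61 to 0.06 on leaving out 1 tumor), MCM7 (0.00 without a filter, 0.11 on both TPM scales, -0.20 to 0.10 on leaving out 1 tumor, 0.21 without 8 h tumors 2 and 4), MKI67 (0.03 on log2(TPM + 0.1), -0.62 to 0.07 on leaving out 1 tumor, 0.19 without 8 h tumors 2 and 4), MUC13 (-0.01 to 0.39 on leaving out 1 tumor, -0.04 without 8 h tumors 2 and 4), PHGR1 (-1.02 to 0.22 on leaving out 1 tumor) and VIM (-0.06 with upper-quartile scaling, -0.07 to 0.16 on leaving out 1 tumor). The cause of these shifts was not tested. The lower depth of the 8 h tumors limits calls of low genes; with a floor of 1 CPM in 4 tumors 2950 genes rose and 2320 fell.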

Other observations

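Among immune and antigen presentation genes the shares that rose were near those of all tested genes. Of 16 MHC class I and loading genes 3 rose and 2 fell (18.8% and 12.5%, against 17.1% and 11.3% of all tested genes); none rose and 1 fell without 8 h tumors 2 and 4, and 4 fell with upper-quartile scaling or by DESeq2. Their median was 0.03 with TMM, -0.10 with upper-quartile scaling and -0.04 on log2(TPM + 1). HLA-C, a class I heavy chain that shares reads with its relatives, rose from 147 ± 32.1 to 279 ± 74.3 CPM (0.92 ± 0.26; 0.71 without a call when 8 h tumors 2 and 4 were left out) and was above the vehicle level of 105 ± 18.1 CPM, while NLRC5, the transactivator of class I genes, fell from 37 ± 6.99 to 17.3 ± 2.16 CPM (-1.10 ± 0.24; -0.84 without a call when 8 h tumors 2 and 4 were left out). Of 28 interferon-stimulated genes 5 rose and 1 fell (17.9% and 3.57%), 2 rose without 48 h tumor 3 or 8 h tumor 3, and 3 rose and none fell without 8 h tumors 2 and 4. With upper-quartile scaling 3 rose and 3 fell, and by DESeq2 3 fell. OAS1, a sensor enzyme of viral RNA, rose from 223 ± 31.3 to 475 ± 41.6 CPM (1.09 ± 0.14).

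Of 30 lysosome and autophagy genes 6 rose and 2 fell (20% and 6.67%, against 17.1% and 11.3% of all tested genes), with PSAP (prosaposin) at 1.20 ± 0.25; 3 rose without 8 h tumor 3, 2 without 8 h tumor 4 and 1 without 8 h tumors 2 and 4, where none fell, and 0 to 3 fell on leaving out 1 tumor. With upper-quartile scaling 3 rose and 5 fell. Their median was 0.12 with TMM and -0.01 with upper-quartile scaling. Of 18 FOXO-linked genes 5 rose and 2 fell (27.8% and 11.1%, against 17.1% and 11.3% of all tested genes). FOXO1 itself rose from 23.5 ± 3.13 to 67.8 ± 4.84 CPM (1.53 ± 0.18). Of the list, 3 rose without 48 h tumor 1, 48 h tumor 2, 8 h tumor 3 or 8 h tumor 4, and 2 with upper-quartile scaling. Without 8 h tumors 2 and 4, 2 rose and none fell. On leaving out 1 tumor 0 to 2 fell. Of 16 trefoil and mucin genes 3 rose (18.8%, against 17.1% of all tested genes) and none fell, and 1 rose without 8 h tumors 2 and 4. MUC17, a membrane mucin, rose from 1110 ± 129 to 2650 ± 585 CPM (1.26 ± 0.29). Of 7 myeloid markers 2 rose, or 1 without 8 h tumors 2 and 4, and 1 fell (28.6% and 14.3%, against 17.1% and 11.3% of all tested genes). ITGAM fell to 1.28 ± 0.377 CPM (-1.50, and -0.57 without a call on log2(TPM + 1)). LYZ, which epithelial tumors can also express, rose by 0.81 ± 0.24. CD68, a macrophage marker named because the count is small, rose by 0.75 ± 0.26. The CD68 call was kept only without 48 h tumor 3 or 8 h tumor 1 among the 8 fits that left out 1 tumor. None of 8 endothelial markers passed by edgeR (1 at an unadjusted p under 0.05, 1 by DESeq2, 1 with upper-quartile scaling).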
